A study of Mus musculus with 9 samples.

Results

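Wnts, Frizzleds and secreted Wnt inhibitors were examined in mouse glioma and in normal brain cells on 9 single-colour expression microarrays. The genes were taken by symbol: every gene on the array named Wnt, Fzd, Sfrp or Dkk followed by a number and, in some, the letter a or b. This gave 37 genes, read by 44 probes, out of 34733 named features read by 55666 probes. They were 19 Wnt genes, 10 Fzd genes, 4 Sfrp genes and 4 Dkk genes, and the symbols fit the families they name. Family members with another style of symbol, such as Frzb and Wif1, were counted with the other pathway genes.

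Wnts are secreted, lipid-bearing signals that act between neighbouring cells. They bind Frizzled receptors at the cell surface, and with the co-receptors Lrp5 and Lrp6 they stop the destruction of beta-catenin, which then drives target genes with TCF and LEF factors. Other Wnts, Wnt5a the best known, act through Frizzled, Ror and Ryk receptors without beta-catenin. Sfrp proteins hold Wnts outside the cell, while Dkk1, Dkk2 and Dkk4 block the co-receptors and Dkk3 is a divergent member that does not act on Lrp6 in the same way. In the brain, Wnt signals pattern the neural tube, keep progenitors dividing, hold back the maturation of oligodendrocyte precursors and, through Wnt7a and Wnt7b, guide the growth of brain vessels.

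Mosaic analysis with double markers (MADM) marks scattered mutant cells by colour when paired mouse chromosomes recombine. The first group was 3 samples of glioma tissue, taken from brain tumours of the MADM background and labelled as EZH2 knocked out. The second was 2 samples of glioma cells, from brain tumours of the MADM background, for which the labels give no further genotype. Neural stem cells and astrocytes, 2 samples each, came from normal wild-type brain of C57BL/6J mice. Ages, the tumour-initiating alleles, the Cre driver and the way cells were isolated are not stated in the labels, nor is it stated whether replicates were separate animals or cultures. A p-value here covers only the spread among these samples, and that spread may be technical.

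Levels are log2 processed signals relative to their array's own 75th percentile, so 0 is the level below which 75% of the probes on that array lie. A level is compared across arrays for the same probe and never between genes. Between 60.1% and 65.7% of spots on an array were well above background, and the arrays of a group differed by a root mean square of 0.83 to 1.03 on the log2 scale. Ezh2, the histone methyltransferase named in the tissue label, read 1.91, 1.62 and 1.48 in the tissue, 3.03 and 3.24 in glioma cells, 2.14 and 3.38 in neural stem cells and 0.19 and -0.58 in astrocytes. Its probe was thus well above background on all 3 tissue arrays labelled as knocked out, and the sources used here do not say whether the probe lies in the deleted part, so it does not check that label. The level in the tissue was lower than in glioma cells by a log2 fold change of -1.46 (SE 0.42, limma adjusted p = 0.0503), which was not called. Sex-linked transcripts differed within the tissue and astrocyte groups: Xist was well above background on tissue array 1 and not on tissue arrays 2 and 3, and Y-linked Ddx3y on astrocyte array 2 and not on astrocyte array 1. They also differed between groups. Of 3 sex-linked genes 2 did not overlap between glioma cells and neural stem cells (median log2 fold change -7.45), and 2 between glioma cells and astrocytes (-4.18). None of these was called, and the part of sex in the comparisons was not tested.

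The cell type labels were set against marker lists. All 8 astrocyte markers were well above background in the astrocytes, with mean levels of 5.24 and 3.62, and all 8 neural stem cell markers in the neural stem cells, with mean levels of 3.78 and 3.58. These counts do not separate the groups, because all 8 astrocyte markers were also above background in the neural stem cells (3.71 and 0.48) and all 8 neural stem cell markers in the astrocytes (2.22 and 1.0). The astrocyte arrays also held all 10 microglia and macrophage markers, at mean levels of 3.69 and 4.0, and all 9 fibroblast and meningeal markers, at 0.83 on array 1 and 5.15 on array 2. The neural stem cell arrays held all 8 oligodendrocyte precursor markers, at mean levels of 5.08 and 4.15. Glioma cells held all 8 of these precursor markers too, at 5.75 and 5.42, and on glioma cell array 1 the stem cell markers Sox2, Pax6 and Prom1 were not well above background.

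**Figure D1:**
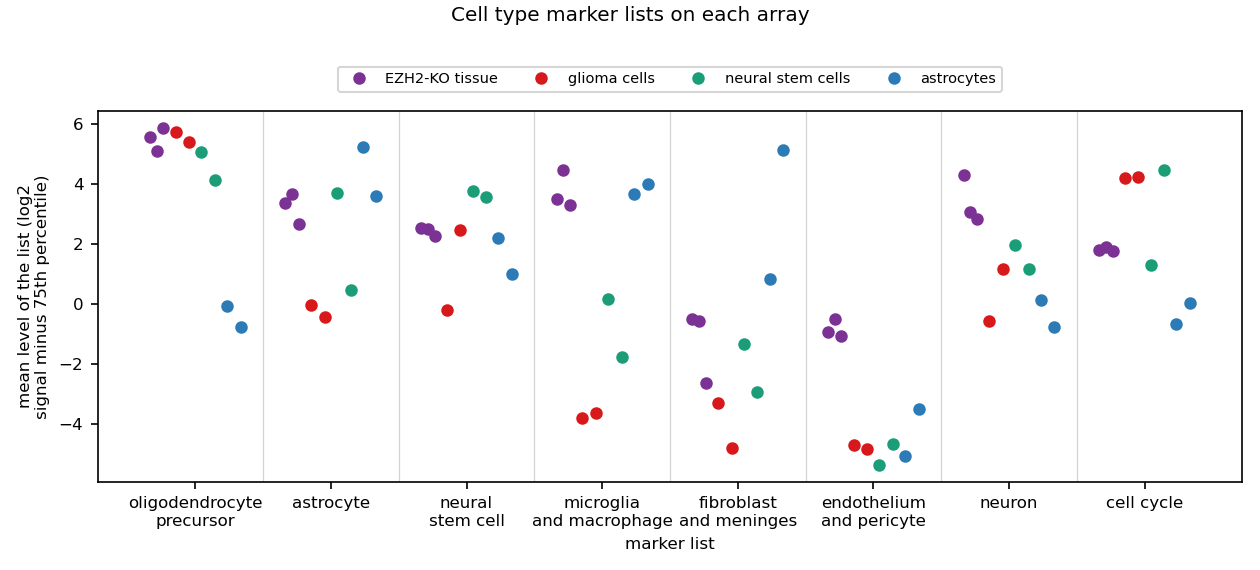
Mean level of 8 marker lists (log2 signal relative to the array's 75th percentile) on each of the 9 arrays, 1 point per array, coloured by group. The microglia and macrophage list stands at 3.31 to 4.48 in the tissue, -3.81 and -3.62 in glioma cells, 0.19 and -1.76 in neural stem cells and 3.69 and 4.0 in astrocytes.

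Promoter sequence was available from RefSeq (GRCm38.p6) for 25 of the 37 genes, as 28 windows of 250 bases ending at a transcription start. Those of 4 genes are printed because the results below turn on them: Wnt9a was called in 3 of the 4 comparisons, Wnt7a and Sfrp5 were called higher in the tissue than in glioma cells, and Fzd7 is a receptor called lower in glioma cells than in astrocytes. CpG-rich promoters are where Polycomb complexes, to which Ezh2 belongs, are known to act, so capitals mark each CG. Whether Polycomb acts on these promoters was not tested. Wnt10a and Fzd8, also called higher in the tissue than in glioma cells, had no window. Every sequence reads from 5′ to 3′ on the strand of its gene and ends at the base before the start. The windows are chr11:59306680-59306929 on the plus strand for Wnt9a, chr6:91411354-91411603 on the minus strand for Wnt7a, chr19:42202253-42202502 on the minus strand for Sfrp5 and chr1:59481897-59482146 on the plus strand for Fzd7.
Wnt9a: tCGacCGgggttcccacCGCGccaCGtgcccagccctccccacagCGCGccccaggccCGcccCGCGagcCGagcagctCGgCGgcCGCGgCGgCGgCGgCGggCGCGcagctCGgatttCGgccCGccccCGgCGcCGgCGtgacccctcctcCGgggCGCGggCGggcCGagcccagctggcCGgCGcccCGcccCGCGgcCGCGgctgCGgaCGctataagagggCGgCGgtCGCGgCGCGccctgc
Wnt7a: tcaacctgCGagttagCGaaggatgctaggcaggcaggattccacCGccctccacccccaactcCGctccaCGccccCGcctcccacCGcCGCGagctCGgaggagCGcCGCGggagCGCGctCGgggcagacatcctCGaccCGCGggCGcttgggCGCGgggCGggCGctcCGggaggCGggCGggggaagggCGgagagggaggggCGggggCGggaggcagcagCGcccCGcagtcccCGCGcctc
Sfrp5: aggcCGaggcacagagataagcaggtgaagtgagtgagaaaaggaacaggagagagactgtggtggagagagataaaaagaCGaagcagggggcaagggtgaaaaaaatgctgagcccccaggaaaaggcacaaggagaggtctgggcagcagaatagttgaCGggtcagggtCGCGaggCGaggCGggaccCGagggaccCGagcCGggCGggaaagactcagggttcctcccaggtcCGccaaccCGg
Fzd7: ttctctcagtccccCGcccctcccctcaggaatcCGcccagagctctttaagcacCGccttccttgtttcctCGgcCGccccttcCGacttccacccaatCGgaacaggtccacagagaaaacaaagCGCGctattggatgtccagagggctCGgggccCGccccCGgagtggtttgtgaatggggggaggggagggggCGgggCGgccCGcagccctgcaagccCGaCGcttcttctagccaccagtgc

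The 4 windows hold 48 CG steps in Wnt9a, 34 in Wnt7a, 13 in Sfrp5 and 17 in Fzd7. Of the called members whose windows are not printed, Fzd1 had 12, and the windows of Wnt5b had 7, 4 and 35. Members called in no comparison also had CG-rich windows, such as Wnt4 with 44 and Fzd9 with 42. Among the 32851 windows of all genes, 0.186% hold as many as Wnt9a, 3.53% as many as Wnt7a, 31.5% as many as Sfrp5 and 23.5% as many as Fzd7. Over the 28 windows of Wnt, Fzd, Sfrp and Dkk genes the median was 22 CG, against 6 over all windows. The letters CTTTGAT or CTTTGAA, forms of the core that TCF and LEF factors bind, were searched on both strands and counted together. Other forms of that core were not searched. They were found in 3 of the 28 windows (10.71%), those of Dkk1, 1 start of Wnt11 and 1 start of Wnt5b, and in 7.48% of all windows. None of the 4 printed windows holds them, which says only that these letters are not within these 250 bases.

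Detection split the families. All 10 Fzd genes and all 4 Sfrp genes were well above background throughout 1 or more groups, which was the condition for a test, as were 12 of 19 Wnt genes and 1 of 4 Dkk genes, Dkk3. These 27 genes were tested, and 21 of the 37 were well above background on all 9 arrays. Wnt3a, a ligand of the beta-catenin branch, and Dkk4 were above background nowhere. The other 8 untested genes were Dkk1, Dkk2, Wnt2, Wnt2b, Wnt8a, Wnt8b, Wnt9b and Wnt10b, each measured on a part of the arrays of 1 or more groups. Wnt9b read -0.61 on tissue array 1 and -4.56 on tissue array 3, and was above background on none of the others. Dkk2, a co-receptor ligand, read -3.87 and -2.97 on tissue arrays 1 and 3, -3.95 on neural stem cell array 1 and -2.23 on astrocyte array 2, and was not well above background on the other 5 arrays.

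The highest group mean of a tested gene lay in astrocytes for 16 of the 27 genes, in neural stem cells for 5, in the tissue for 4 and in glioma cells for 2. The same tally was not made over all genes, so it is not read as a trait of these families. Wnt1, the ligand needed to form the midbrain, kept a narrow range, at -0.13, -0.42 and -0.57 in the tissue, -0.28 and -0.29 in glioma cells, -0.34 and -0.03 in neural stem cells and -0.97 and -0.73 in astrocytes. A second Wnt1 probe was above background nowhere, so the gene rests on 1 probe. Fzd4, the receptor of Norrin in vessels, also stayed close, between -0.70 and 0.42 over all 9 arrays. The probes of Wnt6 and Wnt10a lie 19.1 kb apart on chromosome 1 (mm9, as the files give probe positions), and in glioma cells Wnt6 read 0.25 and -3.79 while Wnt10a was not well above background on either array. Both genes were above background on both astrocyte arrays and below it on both neural stem cell arrays.

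**Figure D2:**
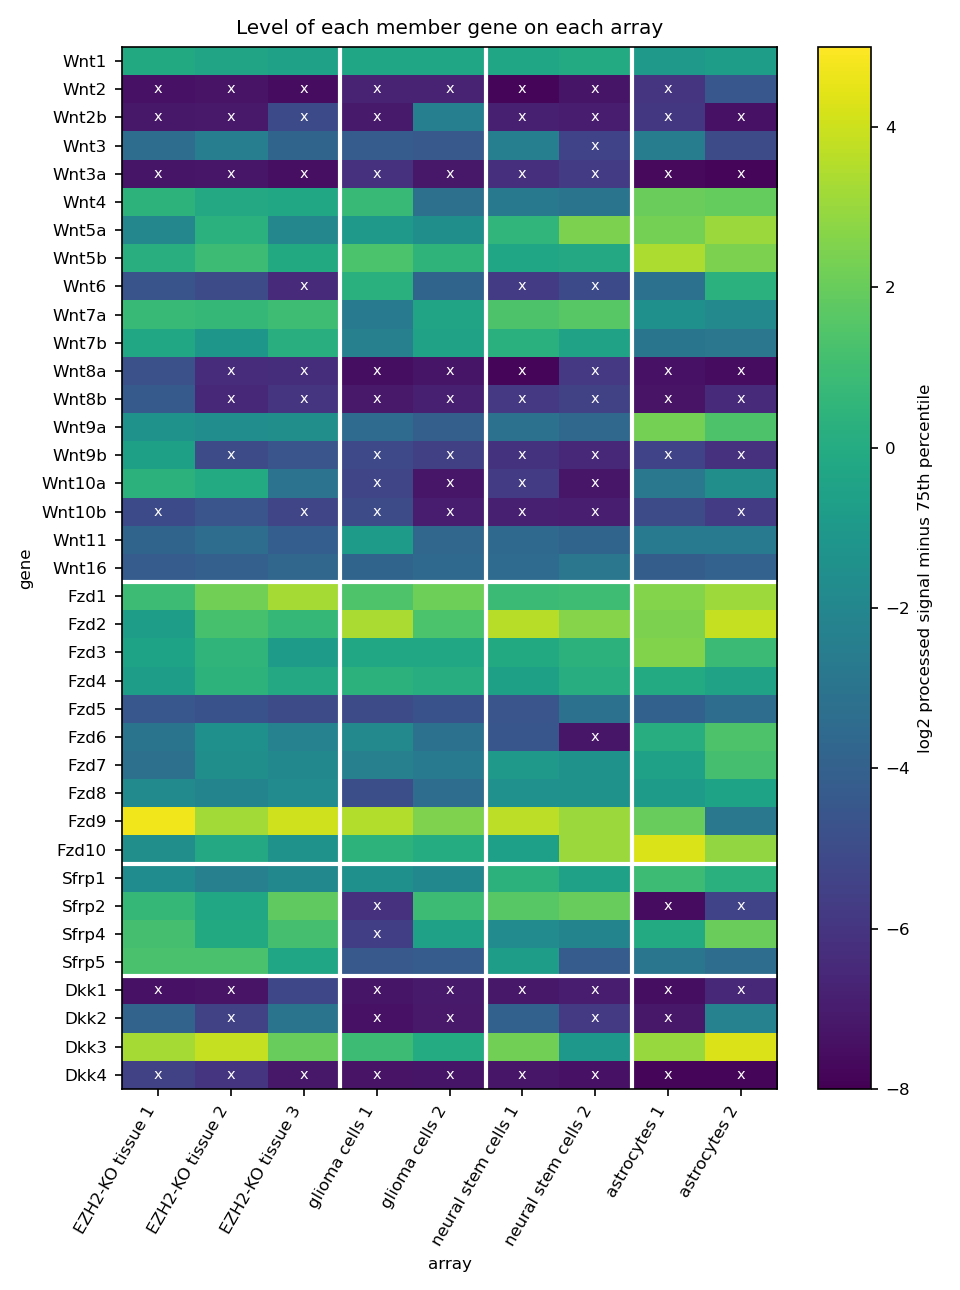
Level of the 37 genes (rows, in family blocks) on the 9 arrays (columns, grouped), as log2 signal relative to the array's 75th percentile, on a colour scale. A cross marks an array on which the gene was not well above background, as for Wnt3a and Dkk4 on all 9 arrays and Wnt10a on all glioma cell and neural stem cell arrays.

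Glioma cells were first compared with astrocytes. None of the 27 tested genes was called higher in glioma cells and 7 were called lower, a call being a Benjamini-Hochberg adjusted p under 0.05 in limma with a change of at least 2-fold. The 7 were the ligands Wnt9a, Wnt10a, Wnt5a and Wnt5b, the receptors Fzd8 and Fzd7 and the inhibitor Sfrp1. Over all 24868 genes tested 9.0% were called higher and 9.84% lower, 18.8% in all. Of these calls 47.8% were higher, and 30.0% with the deposited table unscaled. At an unadjusted limma p under 0.05, 0 members were higher and 12 lower. The share of all genes at this unadjusted threshold is not given here or below. Such counts are therefore not read as a result about these genes. The median log2 fold change of the members was -1.20, beside 0.15 over all genes tested. For 21 members the values of both groups did not overlap, 5 higher and 16 lower in glioma cells, where 69.2% of all genes did not overlap (39.9% higher and 29.3% lower). In bulk RNA, fewer cells of a type and less RNA per cell cannot be told apart.

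Among ligands Wnt9a, which acts in skeletal and blood cell development, had the largest change. It read -3.44 and -4.08 in glioma cells, against 2.30 and 1.37 in astrocytes, from a probe at chr11:59146953-59147012 (mm9). Both glioma cell arrays lay far below both astrocyte arrays. The log2 fold change was -5.59 (SE 0.45, limma adjusted p = 0.00335), or 48.2-fold lower. Wnt5a, the main ligand of the beta-catenin-independent branch, read -1.02 and -1.51 in glioma cells, against 2.29 and 3.04 in astrocytes, with no overlap. Its log2 fold change was -3.93 (SE 0.67, adjusted p = 0.0195), or 15.2-fold lower. The related Wnt5b read 1.31 and 0.47 in glioma cells, against 3.40 and 2.46 in astrocytes, again without overlap, a log2 change of -2.04 (SE 0.46, adjusted p = 0.0397). Wnt10a, a beta-catenin ligand of skin and teeth, was not well above background on either glioma cell array and read -2.79 and -1.58 in astrocytes. It was at least 8.89-fold lower in glioma cells (adjusted p = 0.0340). The bound sets the astrocyte mean against, on each glioma cell array, the lowest signal that was well above background or the gene's own, whichever was higher. Of these 4 calls only that of Wnt9a held with each of the 6 cell arrays left out in turn (log2 fold change -6.06 to -5.12). That of Wnt5a was lost without any 1 of the glioma cell or astrocyte arrays (adjusted p 0.0559 to 0.0883), that of Wnt10a without glioma cell array 2 or either astrocyte array (0.0781 to 0.131) and that of Wnt5b without any 1 of the 6 (0.0604 to 0.149). Wnt5b also missed the threshold with no filter (0.0560) or the arrays of both groups alone (0.0626).

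Both called receptors were lower in glioma cells. Fzd8, a receptor expressed in neural progenitors, read -4.86 and -3.37 in glioma cells, against -0.85 and -0.47 in astrocytes. The arrays did not overlap, and the log2 fold change was -3.45 (SE 0.53, limma adjusted p = 0.0148). Fzd7, a receptor of stem cells in several tissues, read -2.33 and -2.70 in glioma cells, against -0.54 and 1.16 in astrocytes, with a log2 change of -2.82 (SE 0.60, adjusted p = 0.0327). A second, dimmer Fzd7 probe gave -1.30 (adjusted p = 0.432), and with the mean of the probes Fzd7 was at -2.06 (adjusted p = 0.118). With the arrays of both groups alone its adjusted p was 0.0554. Fzd5 showed the opposite disagreement: in a fit of all probes its brighter probe gave -1.19 (adjusted p = 0.176) and its other probe, not well above background on either glioma cell array, was at least 4.90-fold lower in glioma cells (adjusted p = 0.00925). The call of Fzd8 was lost without astrocyte array 1 or 2 (adjusted p 0.0575 and 0.0725). That of Fzd7 was lost without either glioma cell array, astrocyte array 2 or either neural stem cell array (0.0599 to 0.123). Fzd9, a receptor found in neural precursors, was the receptor with the largest change upward, at 3.52 and 2.48 in glioma cells, against 1.99 and -2.78 in astrocytes. Its log2 fold change of 3.40 (SE 1.53, adjusted p = 0.171) was not called, and the astrocyte arrays lay far apart; without astrocyte array 1 it was 5.78 (adjusted p = 0.0211).

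Among the secreted inhibitors Sfrp1, a Wnt-binding protein of radial glia, read -1.47 and -1.93 in glioma cells, against 0.89 and 0.27 in astrocytes. The arrays did not overlap, and the log2 fold change was -2.28 (SE 0.45, limma adjusted p = 0.0271), a call lost without any 1 of the glioma cell or astrocyte arrays (0.0691 to 0.115). Sfrp2 was not called: glioma cell array 1 was not well above background and array 2 read 0.91, while neither astrocyte array was well above background. Its bound is at least 7.28-fold higher in glioma cells on the mean of these discordant arrays (adjusted p = 0.272), and its adjusted p was 0.0213 without glioma cell array 1. Sfrp4 also split the glioma cell arrays, with array 1 not well above background and array 2 at -0.55, against -0.06 and 2.02 in astrocytes (log2 fold change -4.05, SE 1.70, adjusted p = 0.148). Dkk3 read 0.91 and 0.02 in glioma cells, against 2.99 and 4.29 in astrocytes, a log2 change of -3.18 (SE 1.15, adjusted p = 0.110). It was not called, though the arrays did not overlap and the adjusted p was 0.0378 when only the 4 arrays of these groups were fitted.

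Beside these falls the marker lists differed widely. Of the oligodendrocyte precursor list 6 of 8 genes were called higher in glioma cells (median log2 fold change 5.32). Of the cell cycle list 4 of 6 were called higher (median 4.94). Of the astrocyte list 4 of 8 were called lower (median -5.19, or -4.75 with values under the detection limit raised to it). The microglia and macrophage list had 5 of 10 markers well above background on both glioma cell arrays, with Aif1, Cx3cr1, Ctss, C1qa and Trem2 not, against 10 of 10 on both astrocyte arrays. Its summed level, on the log2 scale, was 5.12 and 4.55 in glioma cells, against 7.64 and 7.85 in astrocytes. A sum is carried by its brightest markers. Gene by gene, 9 of 10 were called lower. Their list had a median log2 fold change of -8.85, or -8.20 with values under the detection limit raised to it. The fibroblast and meningeal list had 8 and 5 of 9 markers well above background in glioma cells and 9 of 9 in astrocytes. Its summed level was 0.96 and -0.76 in glioma cells, against 5.77 and 9.05 in astrocytes. Of its genes 5 of 9 were called lower (median log2 fold change -6.85). The part of these cells, of cell identity and of cell division in the lower Wnt, Fzd and Sfrp levels was not tested.

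Of 57 other Wnt pathway genes 54 were tested, and 4 were called higher and 5 lower in glioma cells than in astrocytes. Over all genes tested 9.0% were called higher and 9.84% lower. Lgr5, an R-spondin receptor and a marker of Wnt-driven stem cells, read 0.59 and 0.88 in glioma cells and was not well above background in astrocytes, at least 79.8-fold higher (limma adjusted p = 0.00314), on 1 of its 2 probes, the other being above background nowhere. Myc, a beta-catenin target among many other inputs, had a log2 change of 2.87 (SE 0.32, adjusted p = 0.00679). The secreted inhibitor Cer1 was at least 4.10-fold higher and the Dkk receptor Kremen2 at least 1.92-fold higher (adjusted p = 0.0201 and 0.0219). Wls, the carrier that most Wnts need to leave the cell, fell: it read 0.20 and 0.07 in glioma cells, against 5.05 and 4.78 in astrocytes, a log2 change of -4.78 (SE 0.41, adjusted p = 0.00369). The R-spondins Rspo3 and Rspo2, which strengthen Wnt signals, were at least 27.2-fold and at least 6.41-fold lower (adjusted p = 0.0124 and 0.0487), and their receptor Lgr4 had -2.39 (adjusted p = 0.0331). Cd44, an adhesion receptor listed as a target, had -3.42 (adjusted p = 0.0157). Axin2, the feedback gene most used as a readout of beta-catenin signalling, read -2.21 and -2.13 in glioma cells, against 0.03 and -0.42 in astrocytes, a log2 change of -1.98 (SE 0.55, adjusted p = 0.0616) that was not called. Lef1 had 4.60 (SE 1.82, adjusted p = 0.131) with astrocyte array 1 not well above background, and Ctnnb1, which encodes beta-catenin, 0.19 (SE 0.26, adjusted p = 0.641). The calls of Lgr5, Myc, Wls and Rspo3 held with each array left out. Those of Kremen2 (up to 0.0959), Cer1 (up to 0.0853), Lgr4 (up to 0.123), Rspo2 (up to 0.144) and Cd44 (up to 0.0736) did not, as they were lost without 1 or more of the glioma cell, astrocyte or, for Lgr4 and Rspo2, neural stem cell arrays. With normexp on the mean signal Kremen2 was at 0.80 (adjusted p = 0.115), Cer1 at 1.12 (0.0754), Lgr4 at -0.94 (0.0898) and Rspo2 at -1.34 (0.158), none of them called. Lgr4 also missed the threshold with the arrays of both groups alone or all 9 arrays (up to 0.0549), and Rspo2 with quantile normalization, no filter, both groups alone or the replicate block (up to 0.0705).

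**Figure D3:**
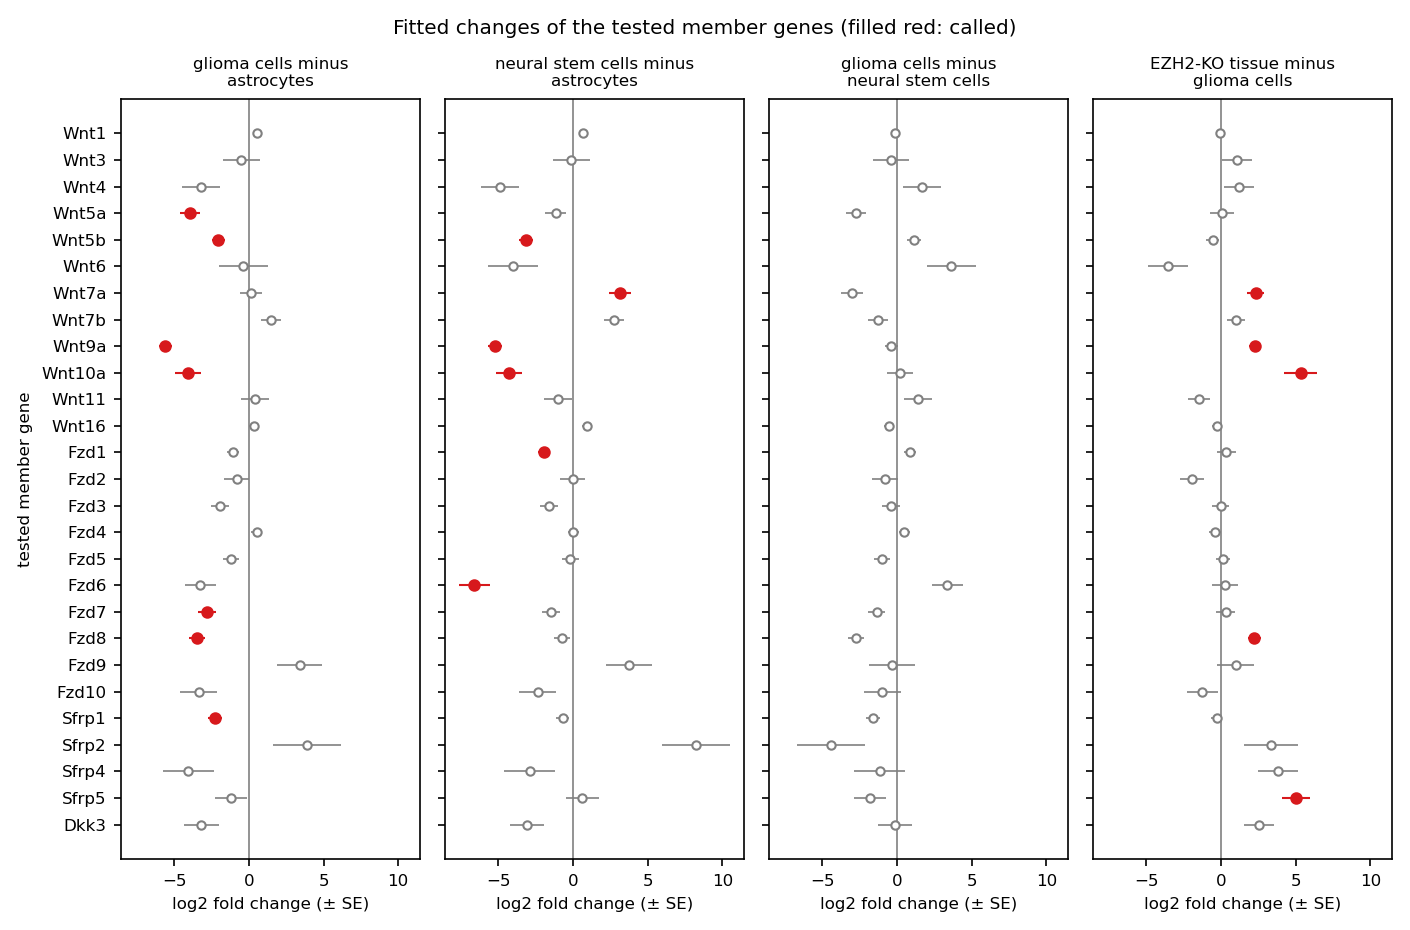
Fitted log2 fold change with its standard error for each of the 27 tested genes (rows) in the 4 comparisons (panels); filled red points are called, open grey points are not. In the panel of glioma cells minus astrocytes all 7 called genes lie left of 0, and in the panel of tissue minus glioma cells all 5 lie right of 0.

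Neural stem cells were compared with the same astrocyte arrays. Among the 27 genes 1 was called higher, Wnt7a, and 5 lower, Fzd6, Wnt9a, Wnt10a, Wnt5b and Fzd1. Over all genes tested 6.74% were called higher and 7.85% lower, 14.6% in all. Of these calls 46.2% were higher, and 24.1% with the deposited table unscaled. The median log2 fold change was -1.0, beside 0.21 over all genes. For 19 genes the arrays did not overlap, 6 higher and 13 lower in neural stem cells, against 66.3% of all genes (39.5% higher and 26.8% lower). Since this comparison shares its astrocyte arrays with the one before, the values of the genes called in both are given side by side below and no overlap of the calls was tested.

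Wnt7a, the ligand that acts on brain endothelium, read 1.36 and 1.63 in neural stem cells, against -1.47 and -1.88 in astrocytes. The arrays of each group lay close together and far from those of the other. The log2 fold change was 3.17 (SE 0.75, limma adjusted p = 0.0491), or 9.0-fold higher, and this call lost the threshold without any 1 of the 4 arrays compared (0.114 to 0.178). It was also lost with quantile normalization (0.0511), the unscaled table (0.0566), no filter (0.0660) and the replicate block (0.0599). Wnt7b, its close relative, read 0.27 and -0.52 in neural stem cells, against -2.94 and -2.86 in astrocytes, a log2 change of 2.78 (SE 0.67, adjusted p = 0.0527) that was not called. Wnt9a read -3.17 and -3.61 in neural stem cells, against 2.30 and 1.37 in astrocytes, a log2 change of -5.22 (SE 0.45, adjusted p = 0.00569) that held with each array left out (-5.69 to -4.75). Wnt10a was not well above background in neural stem cells and at least 8.74-fold lower there than in astrocytes (adjusted p = 0.0344). Wnt5b read -0.32 and -0.15 in neural stem cells, against 3.40 and 2.46 in astrocytes, a log2 change of -3.17 (SE 0.46, adjusted p = 0.0162). Wnt4, a ligand of kidney and gonad development, read -2.76 and -2.99 in neural stem cells, against 2.05 and 1.92 in astrocytes. Its log2 fold change of -4.86 (SE 1.27, adjusted p = 0.0609) was not called, although replicates of both groups were close; the glioma cell arrays in the same fit read 0.81 and -3.23, and with only the neural stem cell and astrocyte arrays the adjusted p was 0.00910. The calls of Wnt10a (0.0600 to 0.143) and Wnt5b (0.0592 to 0.0767) did not survive leaving out either neural stem cell array or 1 or more astrocyte arrays.

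Fzd6, a receptor of planar cell polarity, read -4.53 and, not well above background, -7.24 in neural stem cells, against 0.09 and 1.38 in astrocytes. The fitted log2 fold change was -6.62 (SE 1.03, limma adjusted p = 0.0185), or -5.52 with array 2 raised to the detection limit, a call lost without neural stem cell array 2 or either astrocyte array (0.0553 to 0.0837). Fzd1 read 0.84 and 0.98 in neural stem cells, against 2.58 and 3.11 in astrocytes, with a log2 change of -1.93 (SE 0.37, adjusted p = 0.0315), lost without any 1 of these 4 arrays (0.0747 to 0.127) and with all 9 arrays in the fit (0.0851). Sfrp2, an inhibitor secreted by neural progenitors, was not called. It read 1.60 and 1.96 in neural stem cells and was not well above background in astrocytes, at least 153-fold higher (adjusted p = 0.0690). The glioma cell arrays in the same fit read -6.13, not well above background, and 0.91, and with only the neural stem cell and astrocyte arrays the adjusted p was 0.0113. Dkk3 read 2.23 and -1.08 in neural stem cells, against 2.99 and 4.29 in astrocytes (log2 fold change -3.06, SE 1.15, adjusted p = 0.128).

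The other cell types named above also differed here. The microglia and macrophage list had 10 of 10 markers well above background on all 4 arrays. Its summed level was 5.48 and 4.84 in neural stem cells, against 7.64 and 7.85 in astrocytes. Of its genes 9 of 10 were called lower (median log2 fold change -5.08). The fibroblast and meningeal list had 8 and 6 of 9 markers in neural stem cells, against 9 of 9 in astrocytes. It summed to 3.09 and 2.29, against 5.77 and 9.05, and 2 of 9 genes were called lower (median -4.50). The part of these cells, of cell identity and of cell division in these changes was not tested. Of the 54 other pathway genes 2 were called higher in neural stem cells and 4 lower, where 6.74% of all genes were called higher and 7.85% lower. Lgr5 was at least 11.9-fold higher (limma adjusted p = 0.00976) and Myc had a log2 fold change of 2.54 (adjusted p = 0.0114). The R-spondins Rspo1 (-3.84, adjusted p = 0.0102) and Rspo3 (-3.51, adjusted p = 0.0409) were lower, as were Wls, at 1.35 and 2.35 in neural stem cells, against 5.05 and 4.78 in astrocytes (-3.07, adjusted p = 0.0129), and Cd44 (-3.25, adjusted p = 0.0216). Axin2 had -1.29 (adjusted p = 0.160), Lef1 0.38 (adjusted p = 0.901) and Ctnnb1 0.30 (adjusted p = 0.460), none of them called. The call of Lgr5 held with each array left out. Those of Rspo1 and Myc were lost without neural stem cell array 2 (0.0608 and 0.0593), that of Wls without astrocyte array 1 or 2 (up to 0.0599), that of Cd44 without any 1 of the 4 arrays compared (up to 0.0951) and that of Rspo3 without any 1 of the 6 (up to 0.159). Rspo3, above background on 1 of 2 neural stem cell arrays, was also not called with no filter, both groups alone or the replicate block (up to 0.0611).

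Glioma cells were next compared with neural stem cells, and here no member was called in either direction. Over all genes tested 0.659% were called higher and 0.318% lower in glioma cells, 0.977% in all. At an unadjusted limma p under 0.05 Fzd6 was higher and Fzd8, Sfrp1, Wnt5a and Wnt7a were lower. The median log2 fold change of the members was -0.40 (-0.55 with genes under the detection limit raised to it), beside -0.05 over all genes. For 15 genes the arrays did not overlap, 5 higher and 10 lower in glioma cells, where 46.0% of all genes did not overlap (20.2% higher and 25.8% lower). The absence of a call does not show that the groups are alike, since the standard errors of the members ran up to 2.28.

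Wnt6, a ligand of epithelia, read 0.25 and -3.79 in glioma cells and was not well above background in neural stem cells, at least 11.7-fold higher (limma adjusted p = 0.413). Its glioma cell arrays lay far apart. Wnt7a read -2.63 and -0.40 in glioma cells, against 1.36 and 1.63 in neural stem cells, with no overlap (log2 fold change -3.01, SE 0.75, adjusted p = 0.159). Fzd6 read -1.90 and -3.13 in glioma cells, against -4.53 and -7.24 in neural stem cells, the last not well above background (3.36, SE 1.03, adjusted p = 0.234, or 2.27 with that array raised to the detection limit). Fzd8 read -4.86 and -3.37 in glioma cells, against -1.40 and -1.32 in neural stem cells, a log2 change of -2.75 (SE 0.53, adjusted p = 0.105). The Fzd8 difference passed when all 9 arrays shared the fit (adjusted p = 0.0386) and without glioma cell array 2 (0.0472). Sfrp2 read -6.13, not well above background, and 0.91 in glioma cells, against 1.60 and 1.96 in neural stem cells (-4.39, SE 2.28, adjusted p = 0.473), and the change was -0.87 without glioma cell array 1. Wnt9a was close in these groups, at -3.44 and -4.08 in glioma cells, against -3.17 and -3.61 in neural stem cells (-0.37, SE 0.45, adjusted p = 0.777). Dkk3 had -0.11 (SE 1.15, adjusted p = 0.977). Without glioma cell array 2 the ligands Wnt7a, at -4.13 (adjusted p = 0.0394), and Wnt4, at 3.68 (0.0408), also passed.

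No other pathway gene was called between glioma cells and neural stem cells, with 3 higher and 5 lower at an unadjusted limma p under 0.05. Over all genes tested 0.659% were called higher and 0.318% lower. Axin2 had a log2 fold change of -0.69 (adjusted p = 0.645), Lef1 of 4.23 (adjusted p = 0.385) and Ctnnb1 of -0.11 (adjusted p = 0.896). Lef1, 1 of the factors through which beta-catenin acts, read 0.52 and 2.03 in glioma cells, against -2.91 and -2.99 in neural stem cells, so its arrays did not overlap. Rspo1 read 0.08 and -1.06 in glioma cells, against -3.58 and -3.78 in neural stem cells (adjusted p = 0.0592), and it was named here after its values were seen. The neural stem cell arrays themselves differed in the cell cycle list, whose mean level was 1.29 on array 1 and 4.48 on array 2, beside 4.22 and 4.26 in glioma cells. They also differed in the astrocyte list (3.71 and 0.48), the microglia and macrophage list (0.19 and -1.76) and the mature oligodendrocyte list (-0.25 and -2.23). Neural stem cell array 1 held the higher level of Dkk3, Sfrp5 and Fzd6 and the lower level of Fzd10 and Wnt5a. The part of cell division or of cell types in these differences was not tested.

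**Figure D4:**
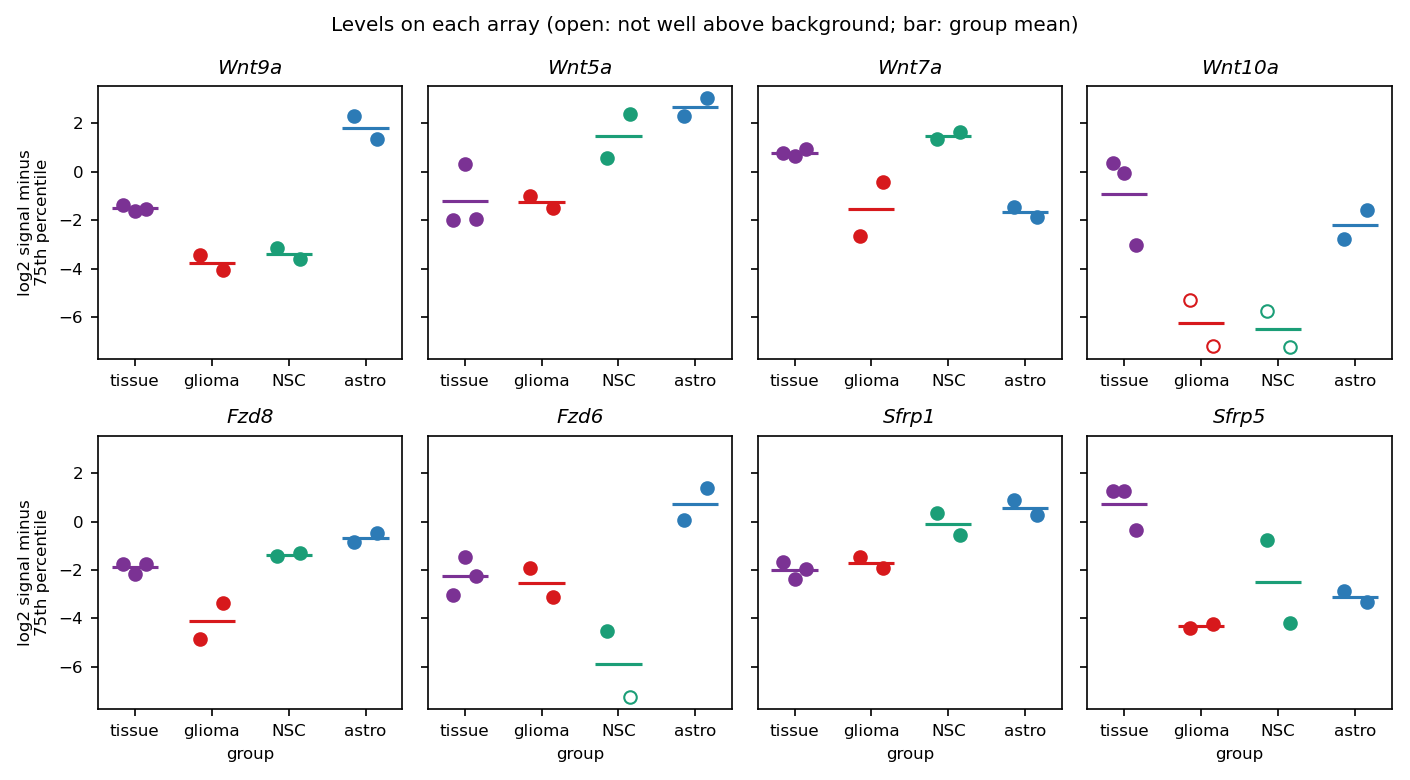
Level of 8 genes on each array (points; open where not well above background) with the group mean (bar), as log2 signal relative to the array's 75th percentile. Wnt9a stands at 2.30 and 1.37 in astrocytes and at -1.36 or lower on all other arrays, and Sfrp5 stands at 1.26, 1.28 and -0.36 in the tissue, above all other arrays.

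The tissue labelled as EZH2 knocked out was compared with glioma cells. 5 members were called higher in the tissue and none lower: the ligands Wnt10a, Wnt9a and Wnt7a, the receptor Fzd8 and the inhibitor Sfrp5. Over all 25398 genes tested 7.82% were called higher and 9.11% lower, 16.9% in all. Of these calls 46.2% were higher, and 79.6% with the deposited table unscaled. At an unadjusted limma p under 0.05, 7 members were higher and 2, Fzd2 and Wnt6, lower. The median log2 fold change of the members was 0.30, beside -0.16 over all genes. For 11 genes the arrays did not overlap, 8 higher and 3 lower in the tissue, where 55.2% of all genes did not overlap (21.5% higher and 33.7% lower). Genotype, tissue against isolated cells, slide and the version of the image extraction software all differ between these groups and cannot be told apart.

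Wnt10a read 0.37, -0.04 and -3.04 in the tissue and was not well above background in glioma cells, at least 21.6-fold higher in the tissue (limma adjusted p = 0.0174). Its 3 tissue arrays were spread widely, and all of them stood above the glioma cells. Wnt9a read -1.36, -1.61 and -1.55 in the tissue, against -3.44 and -4.08 in glioma cells, with close replicates and no overlap. Its log2 fold change was 2.25 (SE 0.36, adjusted p = 0.00678), or 4.76-fold, and held with each of the 9 arrays left out (1.93 to 2.57). Wnt7a read 0.78, 0.65 and 0.95 in the tissue, against -2.63 and -0.40 in glioma cells, a log2 change of 2.31 (SE 0.58, adjusted p = 0.0336). Fzd8 read -1.76, -2.15 and -1.75 in the tissue, against -4.86 and -3.37 in glioma cells, a log2 change of 2.22 (SE 0.43, adjusted p = 0.0141). With normexp background correction on the median signal only Wnt7a and Sfrp5 remained called, with Wnt9a at 1.03 (adjusted p = 0.0528), Wnt10a at 2.34 (0.0686) and Fzd8 at 0.90 (0.0444), under the fold threshold. The call of Wnt10a was lost without tissue array 1 or 2 or glioma cell array 2 (0.0517 to 0.0940), that of Wnt7a without any tissue array, glioma cell array 1 or either astrocyte array (0.0512 to 0.0945) and that of Fzd8 without glioma cell array 1 (0.0557). With the replicate block Wnt7a (0.0970) and Fzd8 (0.0539) were not called, nor was Wnt7a with the arrays of both groups alone (0.0622).

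Sfrp5, a Wnt-binding inhibitor known from gut and fat tissue, read 1.26, 1.28 and -0.36 in the tissue, against -4.38 and -4.24 in glioma cells. Every tissue array lay far above both glioma cell arrays. The log2 fold change was 5.04 (SE 0.95, limma adjusted p = 0.0126), or 32.8-fold, and it missed the threshold with glioma cell array 1 or 2 left out (0.0657 and 0.0528). Sfrp4 read 1.16, -0.11 and 1.19 in the tissue, against -0.55 in glioma cell array 2 and a level not well above background in array 1. Its log2 fold change of 3.82 (SE 1.35, adjusted p = 0.0902) was not called. Sfrp2 read 0.66, -0.27 and 1.84 in the tissue, a range that holds the 0.91 of glioma cell array 2; array 1 was not well above background. Its change was 3.35 (SE 1.82, adjusted p = 0.232), or 2.93 with the undetected array raised to the detection limit, and -0.17 without glioma cell array 1. Without array 2 the adjusted p was 0.00964. Dkk3 read 3.27, 3.85 and 1.98 in the tissue, against 0.91 and 0.02 in glioma cells (2.57, SE 1.00, adjusted p = 0.113), not called though the arrays did not overlap. Downward, the ligand Wnt6 had -3.56 (SE 1.34, adjusted p = 0.106) and the receptor Fzd2 -1.93 (SE 0.82, adjusted p = 0.139). Leaving out glioma cell array 2 brought Wnt6 to -5.58 (adjusted p = 0.0407) and Wnt11 to -2.93 (0.00771). Wnt5a and Sfrp1, both lower in glioma cells than in astrocytes, were not called here, at 0.05 (SE 0.81, adjusted p = 0.970) and -0.29 (SE 0.39, adjusted p = 0.634).

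The tissue and the glioma cells also differed in cell type markers. The astrocyte list, all 8 of its markers above background in the tissue and 7 in glioma cells, had mean levels of 3.38, 3.66 and 2.67 in the tissue, against -0.02 and -0.42, and 5 of its 8 genes were called higher. The cell cycle list averaged 1.82, 1.90 and 1.77 in the tissue, against 4.22 and 4.26 in glioma cells, with 1 of 6 genes called lower. All 10 endothelial and pericyte markers were well above background on every tissue array, against 3 of 10 in glioma cells, where Cdh5, Cldn5, Tek, Tie1, Emcn, Rgs5 and Abcc9 were not. The summed level of that list was 4.30, 4.39 and 3.60 in the tissue, against 3.02 and 3.02 in glioma cells. Gene by gene, 6 of 10 were called higher. The median log2 fold change of the list was 4.11, or 2.76 with values under the detection limit raised to it. The microglia and macrophage list had 10 of 10 markers in the tissue, against 5 of 10, and summed to 7.58, 8.47 and 7.30, against 5.12 and 4.55. Of its genes 8 of 10 were called higher, with a median of 8.73, or 8.10 with such values raised. All 6 neuronal markers were present on the tissue arrays, summing to 7.03, 5.98 and 5.88, against 5 and 6 of 6 and sums of 4.83 and 5.03 in glioma cells. Ttr, the choroid plexus transcript, read 5.89 on tissue array 2 and -2.84 on tissue array 1, and was not well above background on tissue array 3. The fibroblast and meningeal list had mean levels of -0.49, -0.56 and -2.62 in the tissue, against -3.29 and -4.81 in glioma cells. Of its genes 2 of 9 were called higher, with a median log2 fold change of 2.43. The part of these cells in the higher Wnt, Fzd8 and Sfrp5 levels was not tested.

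Among the other pathway genes none was called higher and 7 lower in the tissue than in glioma cells, with 3 higher and 10 lower at an unadjusted limma p under 0.05. Over all genes tested 7.82% were called higher and 9.11% lower. The 7 include Axin2 and Dvl2, whose second probes gave log2 changes of 0.09 and 0.15. Pygo1, a beta-catenin cofactor, read -4.71 on tissue array 1 and was not well above background on tissue arrays 2 and 3, against -2.51 and -2.63 in glioma cells. Its fitted log2 change was -2.78 (SE 0.38, adjusted p = 0.00357), or -2.71 with values under the detection limit raised to it. Myc had -1.69 (adjusted p = 0.0194), the feedback inhibitor Nkd2 -1.58 (0.0177), the Wnt receptor Ryk -1.52 (0.00442) and Dvl2, the adaptor below Frizzled, -1.46 (0.0157; 0.15 from its second probe), and Cer1 was at least 5.13-fold lower (0.0163). Lef1 had -1.94 (adjusted p = 0.366) and Ctnnb1 -0.19 (adjusted p = 0.634), both not called. Axin2 is a case of probes that disagree. Its brighter probe read -7.31, -7.25 and -7.45 in the tissue, not well above background there, against -2.21 and -2.13 in glioma cells, at least 13.5-fold lower in the tissue on that probe (limma adjusted p = 0.000677). Its second probe was well above background on all 3 tissue arrays, at -4.15, -4.15 and -4.26, and read -3.05 and, not well above background, -5.50 in glioma cells, a change of 0.09 (adjusted p = 0.950). The fall of Axin2 therefore rests on 1 probe, and no direction is drawn from it. The calls of Pygo1 and Ryk held with each array left out, but with the unscaled table Ryk was at -0.98 (adjusted p = 0.0874), Dvl2 at -0.92 (0.162), Myc at -1.15 (0.156) and Nkd2 at -1.03 (0.136), none of them called. Dvl2 was also not called with the mean of its probes (0.194) or the replicate block (0.0542), nor Cer1 with normexp on the median signal (0.0667). Those of Myc (up to 0.0992) and Nkd2 (up to 0.102) were lost without 1 or both glioma cell arrays or, for Nkd2, tissue array 1, that of Dvl2 without glioma cell array 1 (0.103) and that of Cer1 without tissue array 1 (0.0508).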

How the data were processed

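Total RNA from 9 samples was labelled with Cy3 and hybridised to single-colour Agilent mouse arrays. The spot intensities were made by the authors with Agilent Feature Extraction, per the file headers background-subtracted and spatially detrended. Version 10.7.3.1 is given in the submitters' processing notes. The headers give 10.7.3.1 for the tissue arrays and 10.7.1.1 for the cell arrays. The deposited log2 table lay within 0.01 of log2 of the processed signal for at least 99.2% of values on each array, so it is not scaled between arrays. Here each array's log2 processed signals were set relative to their own 75th percentile, control and outlier spots were left out, and spots of a probe were averaged. A probe was tested when well above background throughout 1 or more groups, and the brightest tested probe stood for its gene. Linear models came from limma 3.58.1 under R 4.3.3 (lmFit, then eBayes), over 6 cell arrays (3 residual degrees of freedom) or, for the tissue, all 9 (5), with Benjamini-Hochberg adjustment over all genes. The fit was tried on simulated data with normal noise and planted changes, which did not model dim probes, slides or cell content. The number of arrays limits the precision.

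The members and lists were chosen with earlier results of these data known. In each comparison every called member was named, and for a family with no call its tested member with the largest change; of other pathway genes, the most changed calls of each subgroup and Axin2, Lef1 and Ctnnb1. Members named beyond this rule were chosen after their values were seen. Alternatives were the background correction, normalization, probe filter, probe summary, arrays in the fit, a replicate block, a variance trend and each array left out.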

Additional observations from a re-analysis of the deposited data

How the results depend on the processing

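Of 171 repeats of the 18 called member results under other processing, 156 kept the call, 15 lost it and 0 reversed. The 171 leave out genes that a setting did not test. The stricter filter, which asks for every array, removed Wnt10a from each comparison that called it, and Fzd6 from neural stem cells against astrocytes. These calls could not be repeated and are not counted as lost. With 1 array left out, 69 of 123 kept it and 54 lost it, and only the 3 calls of Wnt9a held throughout; a group left with 1 array is assumed to vary like the others. For glioma cells against astrocytes 0 to 2 members were called higher and 2 to 8 lower with 1 array left out (leaving out glioma cell array 1 gave 4 lower, glioma cell array 2 or astrocyte array 1 gave 3, and astrocyte array 2 gave 2). For glioma cells against neural stem cells these ranges were 0 to 1 higher and 0 to 2 lower, and 1 was lower with all 9 arrays in the fit. For neural stem cells against astrocytes the ranges were 0 to 3 higher and 1 to 6 lower; 3 were higher with normexp on the mean signal, with the arrays of both groups alone or with all 9 arrays, 2 with the stricter filter, the mean of probes or a variance trend, and 0 with quantile normalization, the unscaled table, no filter or the replicate block, while 3 were lower with the stricter filter. For the tissue against glioma cells the ranges were 3 to 6 higher and 0 to 2 lower, and 2 were higher with normexp on the median signal, an alternative chosen after seeing the data. The cause was not tested.

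Deviations of same-numbered arrays from their group means were at most weakly correlated (-0.01, 0.05, 0.12 and -0.09). With so few arrays in a group, this check cannot decide whether the numbers pair the samples. With the replicate block 7 members stayed called in glioma cells against astrocytes by count, 0 in glioma cells against neural stem cells, 5 in neural stem cells against astrocytes, all lower, and 3 in the tissue against glioma cells, all higher. A slide block was not run, because each slide holds only tissue or only cells.

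Over all genes, the unscaled table moved the median log2 change by -0.44, -0.41 and 0.54 for glioma cells and neural stem cells against astrocytes and the tissue against glioma cells; it gave 1206 genes higher in the first, 649 higher in the second and 2981 higher and 762 lower in the third. No called member changed sign. The stricter filter gave 1464 lower in the first, 1127 lower in the second and 913 higher in the third. With 1 array left out, the first had 748 or more higher and 1284 or more lower, the second 386 or more higher and 756 or more lower, and the third 1014 higher without glioma cell array 1 and 1447, 963 and 1192 lower without tissue array 2 and glioma cell arrays 1 and 2. Other moves were 1015 higher (both groups alone) and 2747 higher (9 arrays) in the second, and 1233 higher (normexp) and 1119 lower (block) in the third. Glioma cells against neural stem cells had 164 higher and 79 lower, but 88 and 41 with no filter, 46 and 22 with the stricter one, 81 and 30 with both groups alone, 261 and 231 with 9 arrays, 30 and 19 with the block, 101 and 22 without glioma cell array 1, 19 and 7 without astrocyte array 2 and 0 and 0 without astrocyte array 1 or either neural stem cell array.

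Reversed log2 changes, none of them called, were those of Ctnnb1 in glioma cells against astrocytes (-0.25, unscaled table), in neural stem cells against astrocytes (-0.11, unscaled table) and in the tissue against glioma cells (0.17, quantile; 0.35, unscaled table), and of Lef1 in neural stem cells against astrocytes (-0.21, normexp; -0.031, unscaled table; -2.45 to 3.21 with 1 array left out). Axin2 in the tissue against glioma cells was 0.087 with both groups alone, where its other probe is the one tested. With 1 array left out, glioma cells against neural stem cells ran from -3.67 to 1.37 for Sfrp4, -0.025 to 2.84 for Wnt11, -0.35 to 3.68 for Wnt4, -1.77 to 1.54 for Dkk3, -1.44 to 0.070 for Axin2, -0.22 to 0.0034 for Ctnnb1 and -0.25 to 0.99 for Ezh2, and the tissue against glioma cells from -0.17 to 6.87 for Sfrp2 and -0.80 to 3.23 for Wnt4. The cause was not tested. Where a gene was above background on only part of the arrays of a group, its fitted change rests in part on values under the detection limit.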
